A study of Mus musculus with 6 samples.

Results

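The cytosolic DNA sensing genes described here are Cgas, Tmem173 (called Sting1 in the current annotation), Tbk1, Ikbke and Enpp1. Their probe sets on an expression array were taken by gene symbol or its current synonym, without regard to their values. The genes themselves were chosen with earlier results of these data known. Of the 5 genes, 4 had at least 1 probe set with that single symbol, out of 18193 genes on the array with such a probe set, and they had 7 probe sets in all. No probe set carried the symbol Enpp1 in the annotation used here, so Enpp1 was not analysed here.

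The arrays measured RNA from the heart ventricles of 6 mice, as 3 littermate pairs (A, B and C) of 1 Trex1 WT and 1 Trex1 KO animal. All 6 mice were also RAG2KO, so the comparison was made in animals that cannot assemble antigen receptor genes, in both groups alike. The sources used here state neither the ages of the mice nor how the Trex1 and Rag2 alleles were made. The pairs ask how ventricular transcripts of animals without Trex1 compare with those of siblings that have it.

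When double-stranded DNA appears in the cytosol, the enzyme cGAS (Cgas) binds it and makes the cyclic dinucleotide cGAMP. cGAMP binds STING on the endoplasmic reticulum, which moves to the Golgi and recruits the kinase TBK1, or its relative IKK epsilon (Ikbke). The kinase phosphorylates the transcription factor IRF3, which switches on type I interferon, and interferon then raises many further genes. TREX1 is an exonuclease that removes such DNA, and ENPP1 is an ectoenzyme that hydrolyses cGAMP outside cells. Heart inflammation in mice without Trex1 is known to need cGAS and STING.

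Upstream sequences are shown for the 3 members that had both a probe set and an entry in the RefSeq promoter table (assembly GRCm38.p6), beside those of the interferon-induced genes Ifit1 and Ifit3, so that the letters of members that were not called can be set beside those of called targets. Each line reads 5′ to 3′ on the gene's strand and ends at or before the base that precedes the start site; for Ifit1 and Ifit3 only the stretch around the paired units is shown. Capitals mark every GAAA or TTTC, the 4-base units of the interferon-stimulated response element. Cgas, Tbk1 and Ikbke lie on the minus strand and Ifit1 and Ifit3 on the plus strand. Sting1 had no entry in the promoter table. Ifit1 and Ifit3 were shown only where their windows held paired units, and the other called targets are not shown.
Cgas, chr9:78443238-78443487: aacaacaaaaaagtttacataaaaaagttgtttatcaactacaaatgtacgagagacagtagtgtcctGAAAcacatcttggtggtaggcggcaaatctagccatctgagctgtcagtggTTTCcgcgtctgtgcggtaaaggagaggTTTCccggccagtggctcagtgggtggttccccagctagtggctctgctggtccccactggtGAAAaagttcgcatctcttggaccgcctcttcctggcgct
Tbk1, chr10:121586795-121587044: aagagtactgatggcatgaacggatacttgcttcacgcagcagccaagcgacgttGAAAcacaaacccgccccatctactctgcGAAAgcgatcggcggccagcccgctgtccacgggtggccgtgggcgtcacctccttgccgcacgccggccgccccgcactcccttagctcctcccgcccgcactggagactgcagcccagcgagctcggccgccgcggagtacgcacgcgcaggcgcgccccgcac
Ikbke, chr1:131279564-131279813: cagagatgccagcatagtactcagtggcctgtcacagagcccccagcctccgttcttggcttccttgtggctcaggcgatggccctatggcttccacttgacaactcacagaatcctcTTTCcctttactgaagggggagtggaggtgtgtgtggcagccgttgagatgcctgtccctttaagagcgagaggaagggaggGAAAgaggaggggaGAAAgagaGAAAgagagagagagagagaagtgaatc
Ifit1, chr19:34640770-34640828: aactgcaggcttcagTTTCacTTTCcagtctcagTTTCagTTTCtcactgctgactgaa
Ifit3, chr19:34583358-34583431: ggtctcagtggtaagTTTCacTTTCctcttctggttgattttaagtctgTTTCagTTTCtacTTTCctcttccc

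The full element was searched as GAAA, then 2 bases of any kind (NN), then GAAA, on both strands, in the 250 bases before each start site. It was found in 978 of 32851 windows in the table (2.98%), and these windows include several start sites for some genes. Cgas held 4 single units, Tbk1 held 2 and Ikbke held 4, and in none of the 3 did a pair stand at that spacing. The window of Enpp1 did not hold the pair either. Ifit1 and Ifit3 each held the pair in 2 places. Of the 6 downstream targets that rose in the Trex1 KO hearts (below), 4 had a window, and 3 of these (Ifit1, Ifit3 and Rsad2) held the pair. A match is a string of letters and not a binding site, and its absence says only that these letters are not in this window.

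The values are MAS5 signals on a linear scale, 1 per probe set and array. Differences are Trex1 KO minus Trex1 WT of log2(signal + 16), which understates changes of dim probe sets, and they were tested with limma over all 27022 probe sets bright enough to test. Adjusted p-values are Benjamini-Hochberg values over those probe sets, called below 0.05, and the brightest probe set stands for a gene. The Trex1 probe set, which the annotation also gives to Atrip, fell from 714 to 9.45 in pair A, from 340 to 20.6 in pair B and from 887 to 34.2 in pair C (log2 difference -4.10, limma adjusted p = 0.00109), and all 3 Trex1 KO signals were at background, so the size of that difference is set by the background. The Rag2 probe set averaged 51.5 and 76.2 in the 2 groups, which is background or near it. Bacterial control probe sets, which have no target in mouse RNA, reached 69.8 at most. The 7 cardiomyocyte markers differed by -0.097 to -0.0024 on the log2 scale, and 7 of the 8 measured T and B lymphocyte markers lay below the level needed for a test. The Actb 3′ to 5′ ratio is a measure of RNA integrity. It ran from 1.80 to 2.29 in Trex1 WT and from 1.60 to 1.68 in Trex1 KO, without overlap. The same ratio for Gapdh did overlap, at 0.850 to 0.925 in Trex1 WT and 0.841 to 0.885 in Trex1 KO. Litter A gave 18S signals of 12811 (Trex1 WT) and 2834 (Trex1 KO), litter B 13708 and 1907, and litter C 924 and 798. The 18S ranges of the groups thus overlapped, with Trex1 WT A and B far above the other arrays. Each animal gave 1 array, so the p-values reflect how far these animals differed from each other.

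None of the DNA sensing members passed the test in Trex1 KO hearts. In whole ventricle, fewer or more cells of a type and less or more RNA per cell cannot be told apart. On its brightest probe set Sting1 was higher in every Trex1 KO heart than in any Trex1 WT heart, but by less than the adjustment over all probe sets required. On its dimmer probe set the groups overlapped. Cgas and Tbk1 lay close to 0 difference, and Ikbke was at background. Of the 3 members with a tested brightest probe set, 0 were called, against 0.351% of the 12811 tested genes (0.312% called higher), and 1 of the 3, Sting1, had an unadjusted p under 0.05 in limma. At that unadjusted level, 388 of the 12811 tested genes were higher and 290 lower. The ranges of Trex1 KO and Trex1 WT did not overlap for Sting1 alone among the 3. Over all tested genes the 3 Trex1 KO arrays all exceeded the 3 Trex1 WT arrays for 5.03%, and the groups lay apart in either direction for 10.9%.

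**Figure D1:**
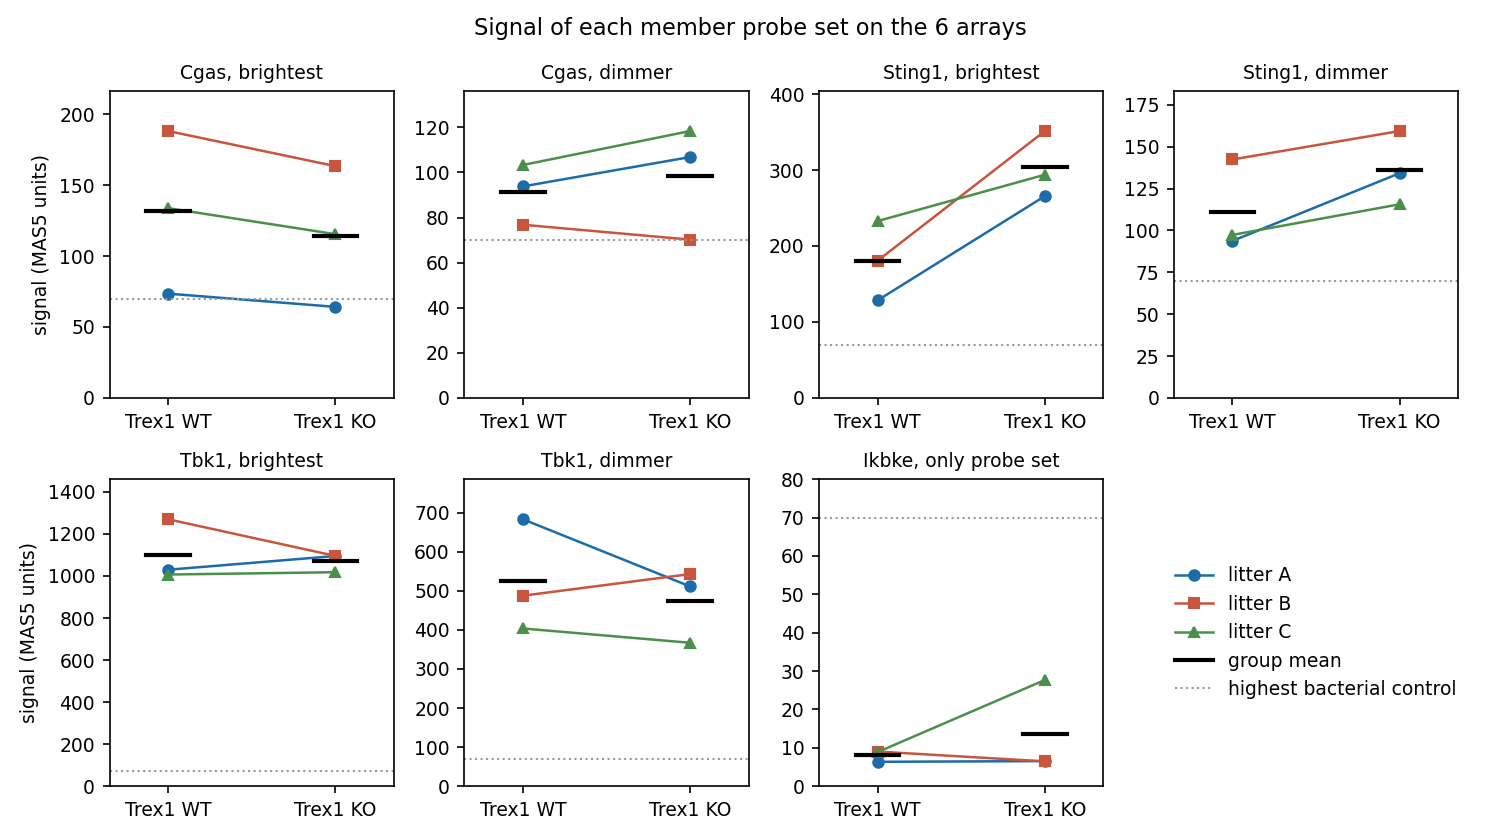
Signal (MAS5 units, linear axis from 0) of the 7 member probe sets in Trex1 WT and Trex1 KO hearts, with a line joining the littermates of each pair, a black bar for each group mean (n = 3) and a dotted line at the highest bacterial control (69.8). Both Sting1 probe sets have the Trex1 KO animal above its littermate in all 3 pairs, the brightest Cgas probe set is ordered by litter, and Ikbke lies below the dotted line on every array.

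The sensor Cgas was expressed at a low level. Its brightest probe set (1440299_at) read 73.5, 188 and 134 in the Trex1 WT hearts of litter A, B and C respectively, against 64.2, 163 and 115 in those of the Trex1 KO siblings. The litters differed far more than the genotypes: both animals of litter A were lowest, both of litter B highest, and in each pair the Trex1 KO animal was slightly below its littermate. The log2 differences within pairs A, B and C were -0.16, -0.19 and -0.19. The group difference was -0.18 with a 95% interval from -1.02 to 0.67 (SE 0.38, limma adjusted p = 0.979), from means of 132 ± 57.3 and 114 ± 49.6 (SD, n = 3). With littermate pairs as a block the SE was 0.24 and the limma adjusted p 0.878. Because the litters lay so far apart, leaving out a single animal could turn the sign, to 0.13 without Trex1 KO A and 0.095 without Trex1 WT B. Trex1 KO A lay below the highest bacterial control. The 95% interval, from the fit without the littermate pairing, is wide and includes a change of Cgas in either direction.

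The spread between litters on this Cgas probe set was compared with that of other genes, a choice made after its values were seen. The litter means spanned 1.18 on the log2 scale, 6.24 times the largest difference within a pair (0.19). A span at least this wide was found for 1.88% of the 12811 tested genes and a ratio at least this high for 0.468%. The dimmer Cgas probe set (1453202_at) did not show this order. It gave 93.8, 76.8 and 103 in Trex1 WT and 107, 70.2 and 118 in Trex1 KO, so that litter B, the highest on the brighter probe set, was the lowest here. Its group difference was 0.076 (95% interval -0.55 to 0.70, limma adjusted p = 0.99), and Trex1 KO B was at the level of the highest bacterial control. The probe sets thus disagreed on the sign of the group difference and on the order of the litters.

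The adaptor Sting1 was the member with the largest difference. Its brightest probe set (1427911_at) read 128, 181 and 233 in the Trex1 WT hearts of litter A, B and C respectively, against 266, 351 and 294 in the Trex1 KO hearts. All 3 Trex1 KO hearts lay above all 3 Trex1 WT hearts, and every littermate comparison ran the same way. The Trex1 KO animal was 1.95-fold, 1.87-fold and 1.25-fold higher in pairs A, B and C, so pair C differed least, with the highest Trex1 WT signal. Group means of 181 ± 52.2 (Trex1 WT) and 304 ± 43.7 (Trex1 KO; SD, n = 3) gave a log2 difference of 0.73 or 1.66-fold (SE 0.23, 95% interval 0.21 to 1.24). The unadjusted p was 0.0103 and the limma adjusted p 0.69, and the exact permutation p over arrays was 0.1 (two-sided), the smallest that 3 against 3 can give. That permutation took no account of the littermate pairs. Among the tested genes the difference stood at the 98.4th percentile.

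The dimmer Sting1 probe set (1447621_s_at) ran in the same direction with a smaller size. It gave 93.7, 142 and 97.3 in Trex1 WT and 134, 159 and 116 in Trex1 KO, and here Trex1 WT B lay above Trex1 KO A and C. Within pairs the Trex1 KO animal was 1.37-fold, 1.11-fold and 1.16-fold higher. The group difference was 0.27 (95% interval -0.29 to 0.84, limma adjusted p = 0.957). With littermate pairs as a block neither probe set passed (limma adjusted p = 0.33 and 0.797), whereas 0.531% of the tested genes were called higher in that fit. The difference of the brighter probe set was 0.93 without pair C (limma adjusted p = 0.502). Once the Actb ratio entered the fit it was 0.29 (SE 0.39, limma adjusted p = 0.93). That of the dimmer probe set was 0.57 in the same fit (SE 0.46, limma adjusted p = 0.885), so the probe sets moved in opposite directions. The Actb ratio separated the groups as the brighter Sting1 probe set did, and its part in the difference was not tested.

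STING is found in macrophages, endothelial cells and fibroblasts, so markers of these cells are given beside it. Macrophage markers summed to between 16520 and 24513 in Trex1 WT and between 20370 and 27179 in Trex1 KO, with 9 of 10 above 0 difference, a median log2 difference of 0.31, and 0 called (2 higher and 0 lower at an unadjusted p under 0.05 in limma). Fcgr1, an Fc receptor that interferon also induces, differed by 0.73 and C1qa, a complement subunit of tissue macrophages, by 0.52, both without overlap between the groups (limma adjusted p = 0.684 and 0.416). Another tested Fcgr1 probe set differed by 0.28. Over all tested genes, 5.03% had all 3 Trex1 KO arrays above all 3 Trex1 WT arrays. Endothelial markers summed to between 9748 and 14077 in Trex1 WT and between 9233 and 11950 in Trex1 KO, with a median of -0.16 and all 3 Trex1 KO hearts lowest for Kdr and Tek, and fibroblast markers to between 31272 and 39680 and between 35667 and 38687, with a median of 0.091. The defining markers Csf1r (macrophage), Pecam1 (endothelial) and Pdgfra (fibroblast) differed by -0.15, 0.043 and -0.32. The other tested Pdgfra probe sets disagreed in sign (0.42 and -0.16), and 4 of the 6 fibroblast markers lay above 0 difference. Neutrophil markers summed to between 471 and 619 in Trex1 WT but between 504 and 1587 in Trex1 KO, with a median of 0.80 over 4 tested genes. Natural killer markers summed to between 517 and 888 and between 764 and 2159, with a median of 0.61 over 5. In both lists 0 were called (1 of each higher at an unadjusted p under 0.05 in limma). Gzma, a granzyme of natural killer and T cells, averaged 383 and 871, and the neutrophil calprotectin subunits S100a8 and S100a9 averaged 245 and 492, and 200 and 441. Their high arrays were Trex1 KO B and C, and Trex1 KO A lay within or below the Trex1 WT range. Csf3r, another neutrophil marker, averaged 40.9 and 80.6 without overlap, with every Trex1 WT array below the highest bacterial control. The natural killer marker Ncr1 differed by -0.080, from means of 65.3 and 61.6 near that control. Of the 5 natural killer markers tested, 4 lay above 0 difference. Of the atrial markers, Nppa, which ventricle makes under load, was 1.99-fold higher (limma adjusted p = 0.126, or 0.00886 in the fit blocked by litter), while Myl7 and Myl4 had 0.34 and 0.18. The part of any of these in the STING difference was not tested.

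The kinase Tbk1 was well above background and close to 0 difference. Its brightest probe set (1460315_s_at) read 1030, 1270 and 1007 in the Trex1 WT hearts of litter A, B and C respectively, against 1095, 1095 and 1018 in the Trex1 KO hearts. The groups overlapped, and Trex1 WT B was the single high array. The difference was -0.036 with a 95% interval from -0.32 to 0.24 (SE 0.13, limma adjusted p = 0.989), from means of 1102 ± 146 and 1069 ± 44.6 (SD, n = 3). The littermate differences were 0.087, -0.21 and 0.016. The sign turned to 0.069 without Trex1 WT B and to 0.21 when the Actb ratio entered the fit, neither past the threshold (limma adjusted p = 0.957 and 0.904).

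The dimmer Tbk1 probe set (1422469_at) gave 683, 488 and 404 in Trex1 WT and 511, 543 and 367 in Trex1 KO. Here Trex1 WT A was highest and both animals of litter C lowest. Its difference was -0.13 (95% interval -0.61 to 0.35, limma adjusted p = 0.972), with the littermates of pair B running opposite to those of pairs A and C. It turned to 0.072 without Trex1 WT A and to 0.038 without Trex1 KO C. The intervals of the 2 probe sets overlapped each other and 0, which does not show that TBK1 was the same in both groups.

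The related kinase Ikbke was not detected above background. Its only probe set (1417813_at) gave 6.35, 9.02 and 8.88 in Trex1 WT and 6.53, 6.46 and 27.7 in Trex1 KO, all below the highest bacterial control. Trex1 KO C was the single higher array, and the groups otherwise overlapped. The probe set lay below the level needed for a test (a mean signal of 53.8), so it has no test here. With the filter removed its difference was 0.22 (SE 0.33, limma adjusted p = 0.977), and it was -0.096 without Trex1 KO C. At such signals a change in Ikbke could not be seen.

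**Figure D2:**
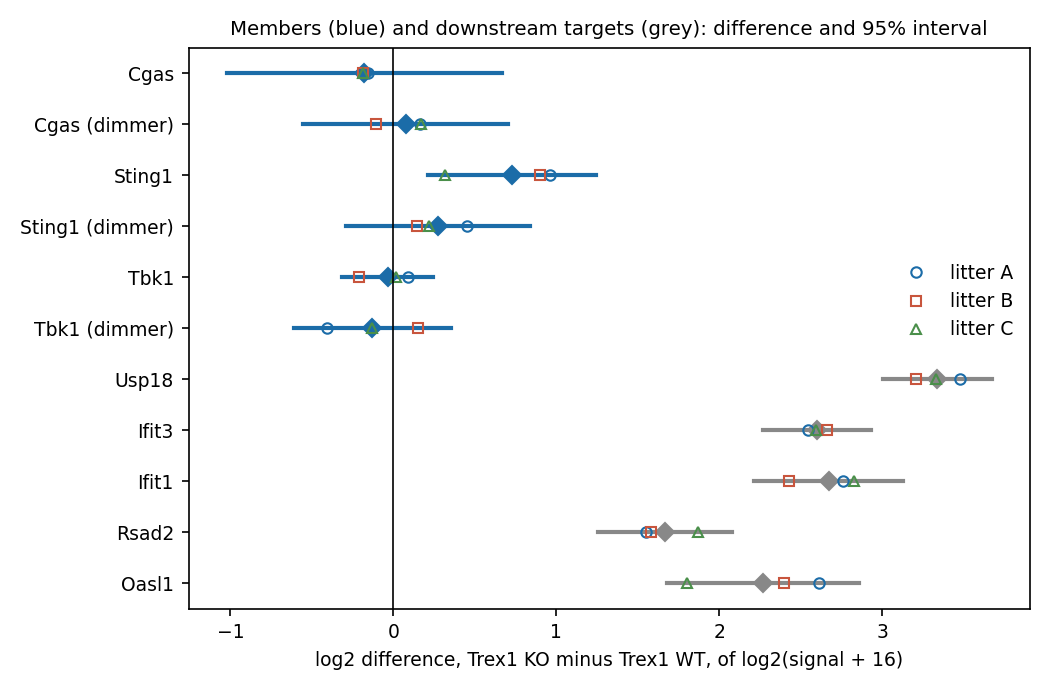
Log2 difference (Trex1 KO minus Trex1 WT, of log2(signal + 16)) of the 6 tested member probe sets in blue and of 5 downstream targets in grey, with the limma estimate as a diamond, its 95% interval as a bar and the 3 littermate differences as open symbols. The interval of the brighter Sting1 probe set runs from 0.21 to 1.24 and those of the other member probe sets include 0, while the grey estimates lie between 1.67 and 3.34.

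The genes whose signals followed each member most closely over the 6 arrays were named by the highest Pearson r, as a description over arrays that include littermates. For Cgas these were Frg2f1, Spns2 and Tbcd (r = 0.993, 0.993 and 0.987), for Sting1 they were Pdia3, Mrpl55 and Arpc4 (r = 0.985, 0.976 and 0.973), and for Tbk1 they were Cep120, Prdx4 and Ssbp1 (r = 0.997, 0.996 and 0.994). None of the 9 was called, and the log2 differences of the 3 genes nearest Sting1 were 0.23, 0.22 and 0.28. With 6 arrays, high values were not confined to the genes named. The r exceeded 0.9 for 128, 117 and 212 of the 12810 other tested genes, in the same order of members.

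The rest of the pathway was described from lists by role. Over 6 lists of 101 genes, not counting the targets, 93 had a probe set and 89 were tested. Of these 2 rose and 0 fell, Irf7 and Zbp1, and the median difference was -0.043 against -0.024 over all tested genes. At an unadjusted p under 0.05 in limma, 6 of the 89 were higher and 0 lower, where all 12811 tested genes gave 388 higher and 290 lower. The groups did not overlap for 17 of the 89 (11 higher and 6 lower in Trex1 KO), which is 19.1%, where all tested genes gave 10.9%.

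**Figure D3:**
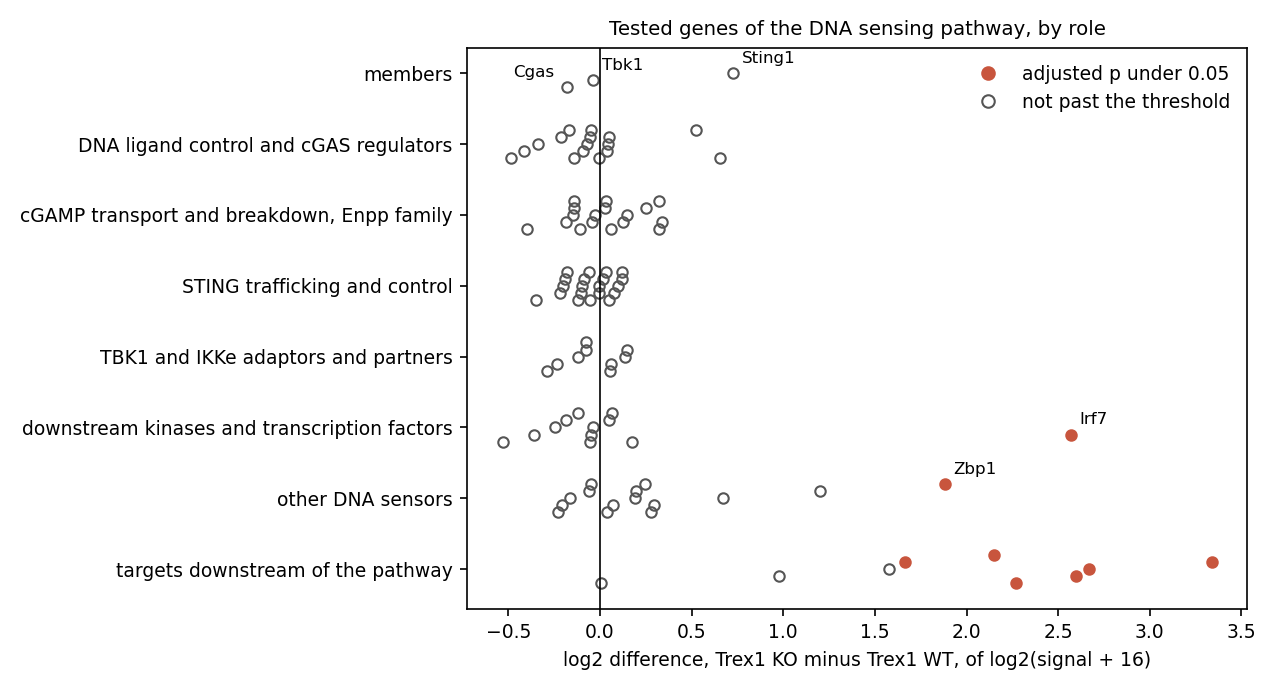
Log2 difference (Trex1 KO minus Trex1 WT, of log2(signal + 16)) of each tested gene in the member group, the 6 role lists and the targets, 1 point per gene, filled where the limma adjusted p is under 0.05; vertical offsets only separate points. Apart from Irf7 and Zbp1, the filled points are the 6 targets, between 1.67 and 3.34.

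Of 16 tested genes that limit the DNA ligand or regulate cGAS, 0 passed (2 higher and 0 lower at an unadjusted p under 0.05 in limma), with a median of -0.062. Samhd1, a dNTP hydrolase that restrains innate sensing, gave 566 ± 85.1 and 815 ± 48.8 (log2 0.52, SE 0.15, limma adjusted p = 0.506) with no overlap. Its other tested probe sets disagreed, with differences of -0.57, -0.89 and 0.35. Trim14, an interferon-inducible stabiliser of cGAS, gave 143 ± 36 and 229 ± 18.5 (log2 0.65, limma adjusted p = 0.777), also with no overlap. Banf1, which keeps cGAS off nuclear DNA, differed by -0.05 (SE 0.097).

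Genes that move or break down cGAMP, and the relatives of Enpp1, showed no called member among 17 tested (0 in either direction at an unadjusted p under 0.05 in limma), and their median was 0.026. Nt5e, the ectonucleotidase CD73, gave 452 ± 31.2 and 574 ± 92.3 (log2 0.32, limma adjusted p = 0.934). Enpp4, a relative of Enpp1, gave 1191 ± 143 and 1416 ± 63.4 (log2 0.25, limma adjusted p = 0.942). Both were higher in all 3 Trex1 KO hearts than in any Trex1 WT heart. The other relatives measured, Enpp3, Enpp5 and Enpp6, had differences of -0.19, 0.061 and -0.40.

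Of 20 tested genes of STING trafficking and control, 0 passed (0 in either direction at an unadjusted p under 0.05 in limma), the median was -0.055 and the differences ran from -0.35 to 0.12. Ulk1, a kinase that phosphorylates STING after its activation, gave 1596 ± 23.5 and 1402 ± 119 (log2 -0.19, limma adjusted p = 0.955), without overlap. Its other tested probe set differed by 0.16, opposite in sign. Rnf5, a ubiquitin ligase that marks STING for degradation, gave 1665 ± 366 and 1447 ± 105 (log2 -0.18, limma adjusted p = 0.956). Trim56, an E3 ligase acting on cGAS and STING, differed by 0.048.

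Adaptors and partners of TBK1 and IKK epsilon gave 0 of 9 past the threshold (0 in either direction at an unadjusted p under 0.05 in limma), with a median of -0.074. Mavs, the mitochondrial adaptor of the RNA sensors that also feeds TBK1, differed by -0.29, and Azi2, a TBK1-binding adaptor, by 0.15 (limma adjusted p = 0.955 for both). Another tested probe set differed by -0.08 for Mavs, and by -0.34 for Azi2, opposite in sign to its brightest. Tank and Tbkbp1, scaffolds that bind the same kinases, differed by 0.061 and -0.076.

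Among downstream kinases and transcription factors 1 of 12 rose and 0 fell, with a median of -0.052. Irf7, an interferon-induced relative of IRF3, rose 5.94-fold (log2 2.57, SE 0.22, limma adjusted p = 0.000728), from means of 667 ± 124 to 4140 ± 1362 and in all 3 pairs. With the Actb ratio in the fit its difference was 2.29 (SE 0.40) and its limma adjusted p 0.164. Irf3, the direct substrate of TBK1, gave 831 and 781 (log2 -0.12, limma adjusted p = 0.971), and Rela, the NF-kB subunit, differed by -0.037. Irf5, a factor of myeloid cells, gave 187 ± 50.5 and 124 ± 34.2 (log2 -0.53, limma adjusted p = 0.953).

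Of the other DNA sensors 1 of 15 rose and 0 fell, and their median was 0.19. Zbp1, which binds left-handed Z-DNA and Z-RNA, had signals of 92.4, 211 and 104 in Trex1 WT and 426, 568 and 554 in Trex1 KO (log2 1.88, SE 0.28, limma adjusted p = 0.0256), without overlap. That call was lost without Trex1 WT A or C or any one Trex1 KO array (limma adjusted p from 0.0669 to 0.164), with pair A or pair C left out (0.293 and 0.304), without the filter (0.0514), without the intensity trend (0.217) and with the Actb ratio in the fit (0.164), where the difference itself was larger (2.55, SE 0.45). Ifi204, of the DNA-binding PYHIN family, gave 110 ± 9.27 and 279 ± 76 (2.30-fold, limma adjusted p = 0.113), and it passed when genes were tested by the mean of their probe sets (limma adjusted p = 0.0478). Ifi204 has 1 probe set, so its own values did not change in that fit, only the features tested with it and the variance estimate. The subunits of DNA-dependent protein kinase, Xrcc5, Xrcc6 and Prkdc, differed by 0.19, -0.049 and -0.21, without overlap between the groups for Xrcc5, higher in Trex1 KO, and Prkdc, lower in Trex1 KO.

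The targets lie downstream of the pathway and of interferon. Of 9 tested 6 rose and 0 fell, and the median was 2.15. Usp18, the protease that removes ISG15, differed by 3.34, the RNA-binding proteins Ifit1 and Ifit3 by 2.67 and 2.60, Oasl1 by 2.27 and the radical enzyme Rsad2 (viperin) by 1.67 (limma adjusted p up to 0.00524). The GTPase Mx2, the remaining one, averaged 26.9 and 172 (limma adjusted p = 0.0306) and lay at background in Trex1 WT. With littermate pairs as a block 7 targets rose, the added one being the chemokine Cxcl10, which averaged 134 and 441 (log2 1.58, limma adjusted p = 0.261, or 0.0137 with the block). Another chemokine, Ccl5, averaged 151 and 312 (limma adjusted p = 0.712, or 0.0775 with the block). Both chemokines were named after their values were seen. Ifnb1, the interferon gene that IRF3 activates directly, had mean signals of 75.6 and 74.9, near the highest bacterial control. The targets were listed with earlier results of these data known, and their count is not independent of them.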

How the data were processed

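The values analysed are those of the deposited table, intensity signals on a linear scale for 45101 probe sets (64 of them controls) on 6 arrays, computed by the authors in MAS5, as the submitters' processing notes name it. The sources used here give no version or settings. Every array had a mean of 500.003 or 500.004 after trimming 2% at each end, so no further normalisation was applied. Groups came from the sample titles and pairs from the design text. Deviations from group means correlated at 0.147 to 0.192 within littermate pairs and at -0.161 to 0.0101 otherwise.

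Signals were transformed to log2(signal + 16), and 27022 probe sets at or above the 40th percentile of mean level entered limma 3.58.1 under R 4.3.3 (lmFit, eBayes with an intensity trend, two-sided, Benjamini-Hochberg adjustment, threshold 0.05). The fit was checked on simulated data. Symbols came from the platform annotation: 34945 probe sets had 1 symbol, 932 several and 9160 none. Genes are named by all member probe sets, and from each list by those past the threshold (5 at most, by p) and the 2 with the smallest p. Other genes were named after their values were seen. Members and lists were chosen with earlier results of these data known. Alternatives were the littermate block, pseudocounts of 1 and 64, other filters, quantile normalisation, eBayes without the trend, the Actb ratio as a covariate, the mean of a gene's probe sets, and leaving out each array or pair. The number of arrays limits the precision of all values.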

Additional observations from a re-analysis of the deposited data

How the results depend on the processing

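No member was called under any of the 18 alternatives, and both Sting1 probe sets kept a positive difference in all that were run (0.29 to 0.93 for the brighter). Signs near 0 turned. For Cgas the range over single arrays left out was -0.50 to 0.13, and for its dimmer probe set -0.053 to 0.27 (-0.099 with the Actb ratio). For Tbk1 it was -0.096 to 0.069 (0.21 with the Actb ratio, 0.051 without littermate pair B), and for its dimmer probe set -0.30 to 0.072 (0.10 with the Actb ratio, 0.0094 without littermate pair A). Samhd1 gave -0.056 and Azi2 -0.095 with the mean of all probe sets, and Rnf5 0.029 without littermate pair C. The 2 role-list genes called higher became 1 without the filter, without the trend, and without littermate pair A or C, 0 with the Actb ratio, 1 to 2 over single arrays left out, and 3 with the mean of all probe sets (Ifi204 added). The 6 targets became 3 without the trend and 3 with the Actb ratio (5 to 6 over single arrays), 4 without littermate pair A or C, 5 without pair B or without the filter, and 7 with the littermate block (Cxcl10 added). Over all probe sets, 59 were higher and 7 lower. These counts were 105 and 16 with the paired design (littermate block), 24 and 4 without the trend, 8 and 1 with the Actb ratio, 33 to 85 and 3 to 9 over single arrays, 23 and 0 without littermate pair A, 34 and 4 without pair C, and 12 lower without pair B. The cause was not tested. The block changed no member's call. Ikbke on all arrays, and the brightest Cgas probe set in litter A, lie near or below the highest bacterial control, where changes can be missed.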

Other observations

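Some components of the pathway that did not pass the test had groups that did not overlap. A selection is given here as values, chosen after they were seen, and not every such gene is named. Groups without overlap were found for 19.1% of the tested role-list genes and for 10.9% of all tested genes. Dnase2a, the lysosomal DNase that clears engulfed DNA, averaged 351 across the Trex1 WT hearts and 251 across the Trex1 KO hearts (log2 -0.48, limma adjusted p = 0.917). Zcchc3, a co-sensor that helps cGAS bind DNA, had 578 and 452 (log2 -0.34), and Agbl5, a deglutamylase, had 216 and 154 (log2 -0.41). Tlr9, the endosomal receptor for unmethylated DNA, had 70.8 and 115 (log2 0.67, limma adjusted p = 0.955), with its Trex1 WT mean near the highest bacterial control of 69.8. Rad50, a DNA break repair protein that can bind cytosolic DNA, had 397 and 491 (log2 0.30). Gja1, the gap junction protein connexin 43 through which cGAMP can pass between cells, had 26412 and 24454 (log2 -0.11).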
